A study of Mus musculus with 8 samples.

Results

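The genes described here write, remove and steer monoubiquitin on histone H2B: the ubiquitin ligase genes Rnf20 and Rnf40, the ubiquitin-conjugating enzyme genes Ube2a and Ube2b, the deubiquitinase genes Usp22 and Usp7, and the PAF1 complex genes Ctr9, Paf1, Leo1 and Cdc73. Their probe sets were taken by symbol, as all those annotated to 1 of these 10 symbols alone. Of the 10 genes, 8 had such probe sets, 19 in all among the 22690 of the table. Rnf40 and Leo1 had none by symbol, with symbols updated through the gene identifier, and are not analysed here.

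Expression was measured on Affymetrix Mouse 430A 2.0 arrays in mouse J1 embryonic stem (ES) cells, a line kept on gelatin in serum with leukemia inhibitory factor. The 8 arrays form 4 groups of 2: Fbxl19 shRNA1, Fbxl19 shRNA2 (hairpins that target the F-box gene Fbxl19), cells on day 4 of differentiation, and cells with a control hairpin (shControl). The series asked how expression in ES cells changes when Fbxl19 is knocked down. How the day 4 cells were differentiated and whether they carried a hairpin is not in the labels. Nothing there shows that replicates were separate cultures, so the p-values cover only the spread between the arrays at hand, which may be technical.

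The description field of the 4 knockdown samples names Fbxl19, Fbxl20, Fbxl21 and Fbxl22 in turn, and the titles and source names, which give Fbxl19, were followed. Fbxl19 had no probe set annotated to its symbol alone, and the knockdown itself was not measured here. The partner arrays correlated across probe sets at 0.988 on day 4, 0.993 for shControl, 0.996 for shRNA2 and 0.997 for shRNA1, and shControl replicate 2 had a higher median (5.81) than the other arrays (at most 5.76). The mean log2 level of 10 pluripotency markers was 10.12 and 9.33 on the day 4 arrays, against 11.47 to 11.62 on the 6 undifferentiated arrays, where these cells' defining markers were thus bright. On day 4, 7 of the 10 fell, and 3 of 7 trophoblast markers rose and 1 fell against shControl. The trophoblast list mean was 6.68 and 6.10 on the day 4 arrays and 5.23 to 5.54 on the others. In that list the keratin genes Krt18 and Krt8 changed by 3.53 and 2.83, while Tfap2c changed by -1.75. The list thus held changes in both directions, and a trophoblast identity was not tested. Of the fibroblast and endoderm lists, 0 of 8 and 0 of 7 genes passed the test on day 4, 1 of 6 measured mesoderm genes rose and 1 fell, and 1 of 6 neuroectoderm genes rose. Of all genes, 16.4% passed that test in either direction. In bulk RNA, fewer cells of a type and less RNA per cell cannot be told apart.

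Monoubiquitination of H2B marks transcribed genes. The RNF20-RNF40 ligase pair transfers ubiquitin from the E2 enzymes UBE2A or UBE2B to the C-terminal tail of H2B, and the PAF1 complex, which travels with elongating RNA polymerase II, recruits this machinery. The mark promotes methylation of histone H3 at lysine residues in turn. USP22, the catalytic subunit of the SAGA deubiquitinase module, removes it, and USP7, also known for stabilising MDM2 and p53, has been reported to act on H2B as well. Fbxl19 encodes a protein whose CXXC zinc finger binds unmethylated CpG DNA.

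Because of that zinc finger, the CG content of the members' promoters was counted in a RefSeq table of assembly GRCm38.p6, over the 250 bases before each transcription start. Of the 10 genes, 8 had an entry and Usp22 and Ctr9 did not. Ube2b is shown for its rise on day 4 and Usp7 for its low level with shRNA2, both described below. Capitals mark each CG, which reads the same on both strands. For all 3 windows the base next to the transcription start lies inside the gene's RefSeq span, which thus reaches further upstream than that start. Whether the far end of each window also lies inside was not checked.
Ube2b, chr11:52000787-52001036, minus strand: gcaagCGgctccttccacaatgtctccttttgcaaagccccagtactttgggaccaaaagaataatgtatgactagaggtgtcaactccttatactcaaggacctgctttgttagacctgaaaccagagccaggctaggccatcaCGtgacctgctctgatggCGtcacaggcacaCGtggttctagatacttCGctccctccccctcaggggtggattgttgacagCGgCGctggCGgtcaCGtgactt
Ube2b, chr11:52000492-52000741, minus strand: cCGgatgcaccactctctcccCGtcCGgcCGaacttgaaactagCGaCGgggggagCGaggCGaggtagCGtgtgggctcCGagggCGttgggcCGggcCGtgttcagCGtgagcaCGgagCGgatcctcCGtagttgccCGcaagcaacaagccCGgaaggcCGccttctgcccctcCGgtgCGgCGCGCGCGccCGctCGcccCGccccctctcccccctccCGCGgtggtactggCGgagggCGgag
Usp7, chr16:8738343-8738592, minus strand: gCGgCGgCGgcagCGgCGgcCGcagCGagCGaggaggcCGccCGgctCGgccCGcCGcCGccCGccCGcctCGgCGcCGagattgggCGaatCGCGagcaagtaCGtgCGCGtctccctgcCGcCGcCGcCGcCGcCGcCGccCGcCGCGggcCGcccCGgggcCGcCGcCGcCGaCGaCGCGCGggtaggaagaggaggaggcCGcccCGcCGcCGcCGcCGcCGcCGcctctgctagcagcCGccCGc
The Usp7 window held 55 CG, a count reached by 0.0091% of the 32851 promoters in the table, where the median was 6 and the quartiles 2 and 16. The Ube2b windows held 9 and 33. Cdc73 had 47 CG, reached by 0.250% of promoters, Leo1 21, Rnf40 13 and 21, Ube2a 15, Paf1 11 and Rnf20 1. The Rnf20 and Leo1 windows lie inside the gene's RefSeq span. Their counts thus describe a start within the gene and not its outermost one. At least 1 CG was present in 92.1% of all promoters in the table. These counts describe the reference sequence, and neither binding nor methylation was measured.

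**Figure D1:**
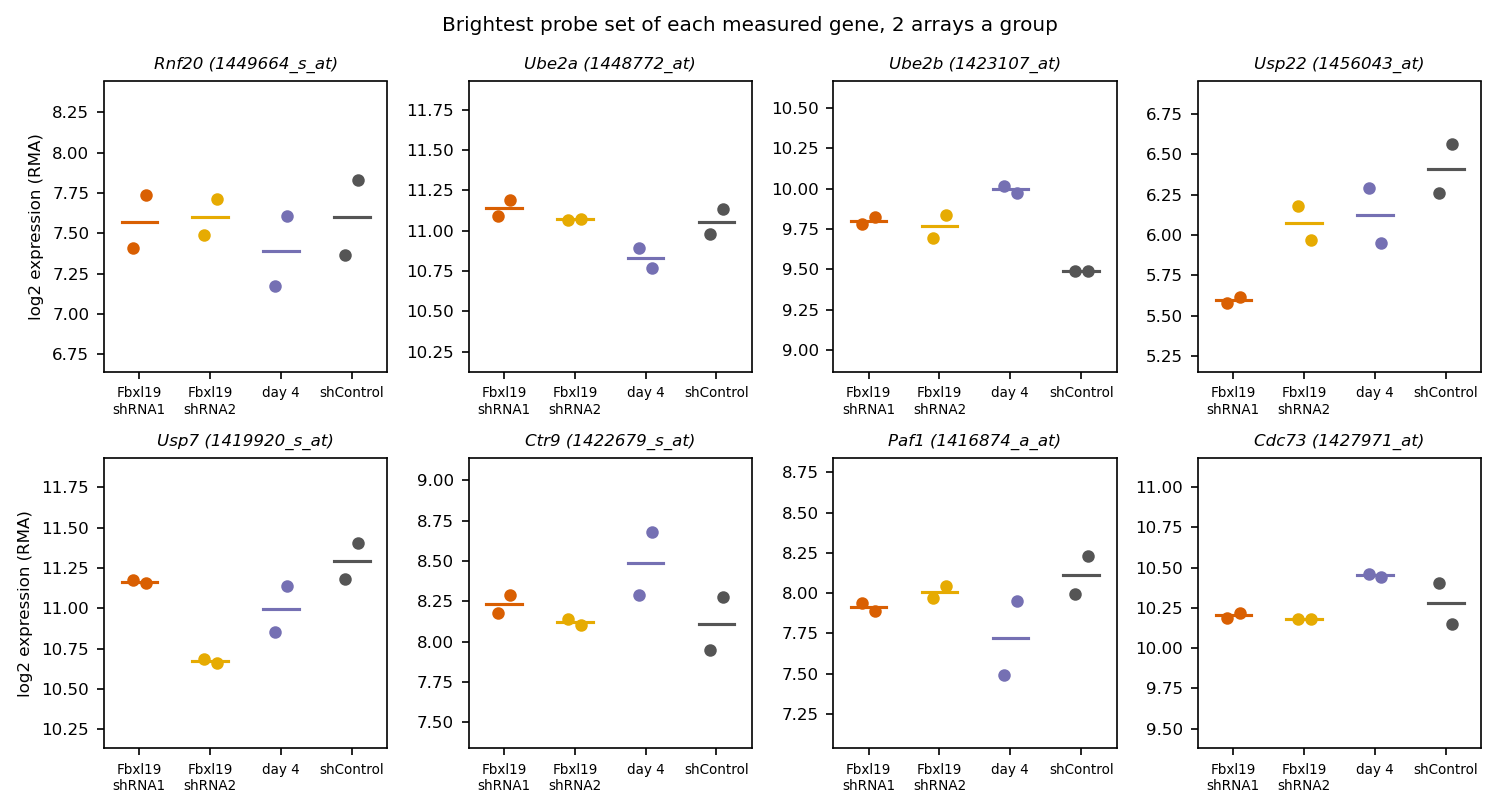
Log2 expression (vertical axis, RMA values) of each measured gene's brightest probe set on every array, with a point per array and a bar at the mean of each group of 2. Ube2b is lowest on both shControl arrays and highest on both day 4 arrays, Usp22 is lowest on the shRNA1 arrays, and Usp7 is lowest on the shRNA2 arrays.

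Values are log2 expression, so a change of 1 is a doubling of signal. Tests came from limma, fitted to 12393 genes with 1 probe set each (the brightest over the 8 arrays), and a gene counted as called where its Benjamini-Hochberg adjusted p was below 0.05. Each ± gives limma's moderated standard error (SE), over groups of 2 arrays. The levels of different probe sets are not compared, since each binds its target with its own strength. The day 4 and hairpin comparisons share the 2 shControl arrays, so any shift of those arrays enters all of them.

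With both hairpins averaged, no member passed the test against shControl. In the limma fit 0 of 8 members were called, where 0.0726% of all genes were, and in a fit of all 20380 single-symbol probe sets 0 of 19 were called, where 0.0294% of all were. At an unadjusted p under 0.05 there were 3 of 8 members (37.5%; all genes 8.42%), and the same 3, Ube2b, Usp22 and Usp7, had arrays that did not overlap between knockdown and shControl (37.5%; all genes 20.1%). The median change of the 8 members was -0.05, against -0.00 for all genes, and the median absolute change was 0.12 in both.

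The ligase gene Rnf20, which encodes a partner in the RNF20-RNF40 pair, was measured by 3 probe sets. On the brightest, 1449664_s_at, it had 7.41 and 7.74 with shRNA1 and 7.49 and 7.71 with shRNA2, against 7.37 and 7.83 in shControl. All 3 groups overlapped, and the mean of both hairpins differed from shControl by -0.01 ± 0.19 (SE; 95% interval -0.44 to 0.41; limma adjusted p = 0.987). On 1452361_at the shRNA1 values were 6.62 and 7.04 and the shRNA2 values 6.84 and 7.18, against 6.65 and 7.10 in shControl, which also overlapped. The third probe set, 1419916_at, was dim, below the lower quartile of all probe sets on 2 arrays. It had 4.11 and 4.08 with shRNA1 and 4.24 and 4.16 with shRNA2, against 3.54 and 4.05 in shControl, a difference of 0.35 ± 0.15 that did not pass the test (adjusted p = 0.562).

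Of the E2 genes, Ube2a was bright and nearly level among the undifferentiated groups. Its probe set 1448772_at had 11.09 and 11.19 with shRNA1 and 11.07 and 11.07 with shRNA2, against 10.98 and 11.13 in shControl. The difference was 0.05 ± 0.11 (95% interval -0.21 to 0.31; limma adjusted p = 0.927). Its second probe set, 1417609_at, had 7.88 and 8.20 with shRNA1 and 7.77 and 7.95 with shRNA2, against 7.79 and 8.23 in shControl, with overlapping groups.

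Ube2b, which encodes the close relative RAD6B, stood higher on all 4 knockdown arrays. Its brighter probe set 1423107_at had 9.78 and 9.82 with shRNA1 and 9.69 and 9.84 with shRNA2, against 9.49 and 9.49 in shControl. The knockdown arrays lay above both controls, but the difference of 0.29 ± 0.11 (95% interval 0.05 to 0.54; unadjusted p = 0.0253) was not called by limma (adjusted p = 0.523). Its second probe set, 1423106_at, had 7.56 and 8.01 with shRNA1 and 7.27 and 7.65 with shRNA2, against 6.92 and 7.67 in shControl, where the 2 controls were far apart and the groups overlapped. Signs of RNA quality gave a mixed picture. The gap between the actin probe sets at the 3' and 5' ends of the transcript was 0.70 to 0.76 in knockdown cells and 0.73 and 0.65 in day 4 cells, against 0.60 and 0.54 in shControl cells, without overlap. The same gap for Gapdh overlapped, with 0.177 to 0.270 in knockdown cells and 0.265 and 0.204 in day 4 cells, against 0.175 and 0.256 in shControl cells. Their part in the Ube2b values was not tested.

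The deubiquitinase genes passed the test with neither hairpin. Usp22, measured by the single probe set 1456043_at, had 5.58 and 5.62 with shRNA1 and 6.18 and 5.97 with shRNA2, against 6.26 and 6.56 in shControl. The shRNA1 arrays were the lowest of all 8, and the shRNA2 arrays lay just under the controls. With shRNA1 the change was -0.81 ± 0.17 (0.569-fold; 95% interval -1.20 to -0.43; unadjusted p = 0.00101), which was not called when adjusted over all genes (limma adjusted p = 0.124). It was called when the spread was estimated from the compared groups alone (adjusted p = 0.0448) or without either day 4 array (adjusted p = 0.0457), while adjusted p was 0.162 to 0.707 without a shRNA1 or shControl array. Those calls came from the gene fit, and in the fit of all probe sets 1456043_at was called with shRNA1 under none of 15 alternatives. With shRNA2 the Usp22 change was -0.34 ± 0.17 (95% interval -0.72 to 0.05; adjusted p = 0.970), and with both hairpins averaged -0.58 ± 0.15 (adjusted p = 0.310).

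Usp7 was lower with shRNA2 than with shRNA1 on all arrays of both its probe sets, though not called. Its brighter probe set 1419920_s_at had 11.17 and 11.16 with shRNA1 and 10.69 and 10.66 with shRNA2, against 11.18 and 11.41 in shControl. The suffix _s_at marks probes that may also match other transcripts. The brightest sets of Rnf20 and Ctr9, 1449664_s_at and 1422679_s_at, carry it too. The second Usp7 probe set, 1419921_s_at, had 7.40 and 7.30 with shRNA1 and 6.69 and 6.88 with shRNA2, against 7.31 and 7.34 in shControl. On both probe sets the shRNA2 arrays were below every other array, while shRNA1 lay just under the controls on the first and overlapped them on the second. The shRNA2 change was -0.62 ± 0.15 on the first (0.651-fold; 95% interval -0.95 to -0.28; unadjusted p = 0.00251; limma adjusted p = 0.434) and -0.54 ± 0.13 on the second (adjusted p = 0.479). With shRNA1 the first gave -0.13 ± 0.15 (adjusted p = 0.821), and with both hairpins averaged it gave -0.37 ± 0.13 (adjusted p = 0.483).

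Among the PAF1 complex genes, Paf1, which encodes the subunit the complex is named after, had 1 probe set, 1416874_a_at. It had 7.94 and 7.89 with shRNA1 and 7.97 and 8.05 with shRNA2, against 7.99 and 8.23 in shControl, a difference of -0.15 ± 0.15 (95% interval -0.49 to 0.19; limma adjusted p = 0.807). Both shRNA1 arrays were under both controls, and the shRNA2 arrays overlapped them.

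Ctr9 encodes a large scaffold subunit of the complex and had 4 probe sets. The brightest, 1422679_s_at, had 8.18 and 8.29 with shRNA1 and 8.14 and 8.10 with shRNA2, against 7.95 and 8.28 in shControl, a difference of 0.07 ± 0.15 (95% interval -0.28 to 0.41; limma adjusted p = 0.927). On 1422680_at the 4 knockdown arrays lay above the controls, with 7.62 and 7.78 for shRNA1 and 7.65 and 7.71 for shRNA2, against 7.32 and 7.50 for shControl. That difference, 0.28 ± 0.12, was not called (adjusted p = 0.545). The remaining sets, 1422681_at and the dim 1448076_at, overlapped between knockdown and control.

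Cdc73, the gene of the tumour suppressor parafibromin, had 4 probe sets, and on all of them the 4 knockdown arrays, with both hairpins pooled, overlapped the controls. The brightest, 1427971_at, had 10.19 and 10.22 with shRNA1 and 10.18 and 10.18 with shRNA2, against 10.41 and 10.15 in shControl, where the spread between the 2 controls was wider than that of the knockdown arrays. The difference was -0.08 ± 0.12 (95% interval -0.35 to 0.18; limma adjusted p = 0.870). The other 3 sets gave -0.11 ± 0.22 for 1439103_at, -0.08 ± 0.11 for 1427973_s_at and -0.04 ± 0.12 for 1427972_at. Taken by hairpin, 1427973_s_at had 6.45 and 6.41 with shRNA1, both under the controls, and 6.69 and 6.76 with shRNA2, against 6.74 and 6.58 in shControl. Its shRNA1 change was -0.23 ± 0.13 (adjusted p = 0.610), and shRNA2 exceeded shRNA1 by 0.30 ± 0.13 (unadjusted p = 0.0476, limma adjusted p close to 1). On 1427972_at both shRNA2 arrays, at 6.54 and 6.54, lay under the controls at 6.64 and 6.59.

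**Figure D2:**
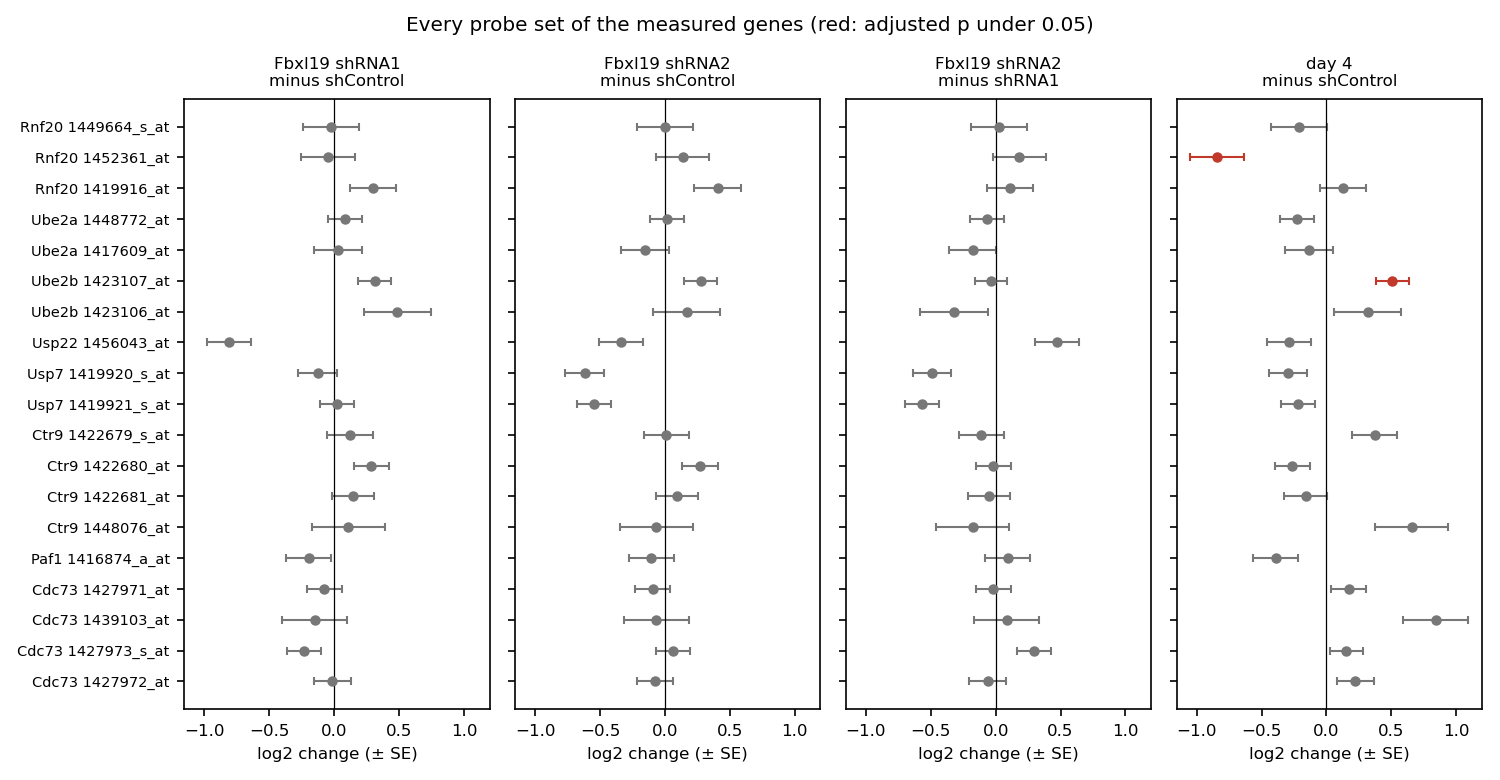
Log2 change of each of the 19 probe sets (horizontal axis, with bars of ± 1 SE from the limma fit of all probe sets), with a panel each for shRNA1 minus shControl, shRNA2 minus shControl, shRNA2 minus shRNA1 and day 4 minus shControl. Usp22 lies at -0.81 with shRNA1 and both Usp7 sets lie at -0.62 and -0.54 with shRNA2, while the 2 sets in red, 1452361_at of Rnf20 and 1423107_at of Ube2b on day 4, are those called.

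For the single hairpins, 0 of 8 members were called with shRNA1, where 0.242% of all genes were, and 0 of 19 probe sets, where 0.182% of all were. At an unadjusted p under 0.05 there were 2 of 8 (25%; all genes 9.82%), Ube2b and Usp22. With shRNA2, 0 of 8 members and 0 of 19 probe sets were called by limma, where 0% of all genes and 0% of all probe sets were, and Usp7 alone had an unadjusted p under 0.05 (12.5%; all genes 5.1%). Ube2b changed by 0.31 ± 0.13 with shRNA1 (adjusted p = 0.471) and 0.28 ± 0.13 with shRNA2 (adjusted p = 0.970), so neither change was called. On their brightest probe sets, the other 5 genes stayed between -0.20 and 0.12 with shRNA1 and between -0.10 and 0.02 with shRNA2. Some of their other probe sets lay outside these ranges on either side. The widest change was that of the dim 1419916_at of Rnf20, with 0.30 ± 0.18 for shRNA1 and 0.41 ± 0.18 for shRNA2.

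The direct comparison of shRNA2 with shRNA1 uses no shControl array. In it, 0 of 8 members and 0 of 19 probe sets were called by limma, where 0.105% of all genes and 0.0736% of all probe sets were. Usp22 and Usp7 had an unadjusted p under 0.05, 2 of 8 members (25%; all genes 5.15%). Usp22 was 0.48 ± 0.17 higher with shRNA2 than with shRNA1 (95% interval 0.09 to 0.86; unadjusted p = 0.0206; limma adjusted p = 0.750). Usp7 differed by -0.49 ± 0.15 on its brighter probe set (95% interval -0.83 to -0.16; unadjusted p = 0.00921; adjusted p = 0.543) and by -0.57 ± 0.13 on the other (adjusted p = 0.344). With weights for array quality, Usp7 was called in the gene fit (adjusted p = 0.0482). In the fit of all probe sets with those weights, 1419921_s_at was called (adjusted p = 0.0378) and the brighter 1419920_s_at was not (adjusted p = 0.0642). On their brightest probe sets, the other 6 genes differed between the hairpins by -0.11 to 0.09. Their other probe sets ranged more widely, from -0.32 ± 0.26 for Ube2b 1423106_at to 0.30 ± 0.13 for Cdc73 1427973_s_at.

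On day 4 of differentiation, Ube2b rose and no other member did so, while a second probe set of Rnf20 fell. In the limma fit 1 of 8 members was called (12.5%), where 16.4% of all genes were (2033 of 12393), and 1 of 8 had an unadjusted p under 0.05, where 29.2% of all genes did. The share of members called is close to that of all genes. Their arrays did not overlap between day 4 and shControl for 6 of 8 (75%; all genes 50.4%), the exceptions being Rnf20 and Usp22. Pluripotency markers fell and genes of the trophoblast list moved in both directions in the same comparison, as given above. Their part in the members' values was not tested. The median change of the 8 was -0.22, against -0.00 for all genes, with 3 of 8 above 0 and a median absolute change of 0.29, against 0.22 for all genes.

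Ube2b had 10.02 and 9.98 on the day 4 arrays, against 9.49 and 9.49 on the shControl arrays, and the knockdown arrays lay between them. The change was 0.51 ± 0.13 (1.42-fold; 95% interval 0.22 to 0.79; limma adjusted p = 0.0255). Against the mean of all 3 undifferentiated groups it was 0.31 (adjusted p = 0.0604), an alternative that ended the call. The call also ended without any 1 of 7 arrays: adjusted p was 0.0624 when a shRNA1 array was left out, 0.0504 when a shRNA2 array was, 0.0629 without day 4 replicate 1, and 0.0558 and 0.0750 without shControl replicates 1 and 2, with a change of 0.48 to 0.51. It held without day 4 replicate 2 (0.53, adjusted p = 0.0378). The second probe set had 7.55 and 7.69 on day 4, against 6.92 and 7.67 in shControl, with overlapping groups (0.32 ± 0.26, adjusted p = 0.483).

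Rnf20 gave different answers by probe set. On 1452361_at it had 5.98 and 6.09 on day 4, against 6.65 and 7.10 in shControl, and the day 4 arrays were below all 6 others. The change was -0.84 ± 0.21 (0.558-fold; 95% interval -1.31 to -0.37; limma adjusted p = 0.0267 in the fit of all probe sets). It was not called without shControl replicate 2 (-0.62, adjusted p = 0.168) or without day 4 replicate 1 (-0.79, adjusted p = 0.0747), and against the mean of the undifferentiated groups it was -0.87 (adjusted p = 0.00640). On the brightest set, 1449664_s_at, day 4 had 7.17 and 7.61, against 7.37 and 7.83 in shControl, and the groups overlapped (-0.21 ± 0.21, adjusted p = 0.576). The dim 1419916_at had 3.82 and 4.02 on day 4, against 3.54 and 4.05, a difference of 0.13 ± 0.18.

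Over all probe sets, 2 of 19 were called on day 4 (10.5%), where 14.8% of all 20380 were, namely 1452361_at of Rnf20 and 1423107_at of Ube2b (adjusted p = 0.0283). The E2 gene Ube2a had 10.89 and 10.77 on day 4, against 10.98 and 11.13 in shControl, lower on both arrays but not called (-0.22 ± 0.13, limma adjusted p = 0.303). On its second set the groups overlapped.

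The deubiquitinase genes were not called on day 4. Usp22 had 6.29 and 5.95, against 6.26 and 6.56 in shControl (-0.29 ± 0.17, limma adjusted p = 0.30). Its difference turned to 0.09 against the mean of the undifferentiated groups, which includes the low shRNA1 arrays. Usp7 had 10.85 and 11.14, against 11.18 and 11.41 (-0.30 ± 0.15, adjusted p = 0.228), and its second set had 7.10 and 7.12, against 7.31 and 7.34, so both day 4 arrays were below both controls on each.

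No measured PAF1 complex gene was called by limma on day 4, and the signs of their changes differed. Paf1 had 7.49 and 7.95, against 7.99 and 8.23 in shControl, lower on both arrays but with the 2 day 4 arrays far apart (-0.39 ± 0.17; 95% interval -0.78 to 0.00; limma adjusted p = 0.176). Without day 4 replicate 2 it was called (-0.62, adjusted p = 0.0264), and without day 4 replicate 1 it was -0.16 (adjusted p = 0.611). Cdc73 was higher on both day 4 arrays than on both controls with all 4 probe sets. The brightest, 1427971_at, had 10.46 and 10.44, against 10.41 and 10.15 (0.17 ± 0.14, adjusted p = 0.452). The widest difference was on 1439103_at, with 7.91 and 7.33 on day 4, against 7.12 and 6.43 in shControl (0.84 ± 0.25, adjusted p = 0.0545). Against the mean of the undifferentiated groups 1439103_at was called (0.92, adjusted p = 0.0127), as it was without day 4 replicate 2 (1.14, adjusted p = 0.0144) and without shControl replicate 1 (1.19, adjusted p = 0.0277). It shrank to 0.55 without day 4 replicate 1 (adjusted p = 0.215) and to 0.50 without shControl replicate 2 (adjusted p = 0.290).

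The 4 probe sets of Ctr9 gave opposite signs on day 4. The brightest, 1422679_s_at, had 8.29 and 8.68, against 7.95 and 8.28 in shControl (0.37 ± 0.17, limma adjusted p = 0.195). On 1422680_at, day 4 had 7.21 and 7.09, against 7.32 and 7.50 (-0.26 ± 0.14, adjusted p = 0.260), and on 1422681_at 5.81 and 6.01, against 5.87 and 6.27. Against the mean of the undifferentiated groups, 1422680_at was called (-0.45, adjusted p = 0.0214). The dim 1448076_at, below the lower quartile on 7 arrays, had 4.36 and 3.58, against 3.63 and 3.01, and was called without day 4 replicate 2 (1.05, adjusted p = 0.0230). Without day 4 replicate 1 it was 0.27 (adjusted p = 0.602), and without shControl replicate 2 it was 0.35 (adjusted p = 0.598).

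**Figure D3:**
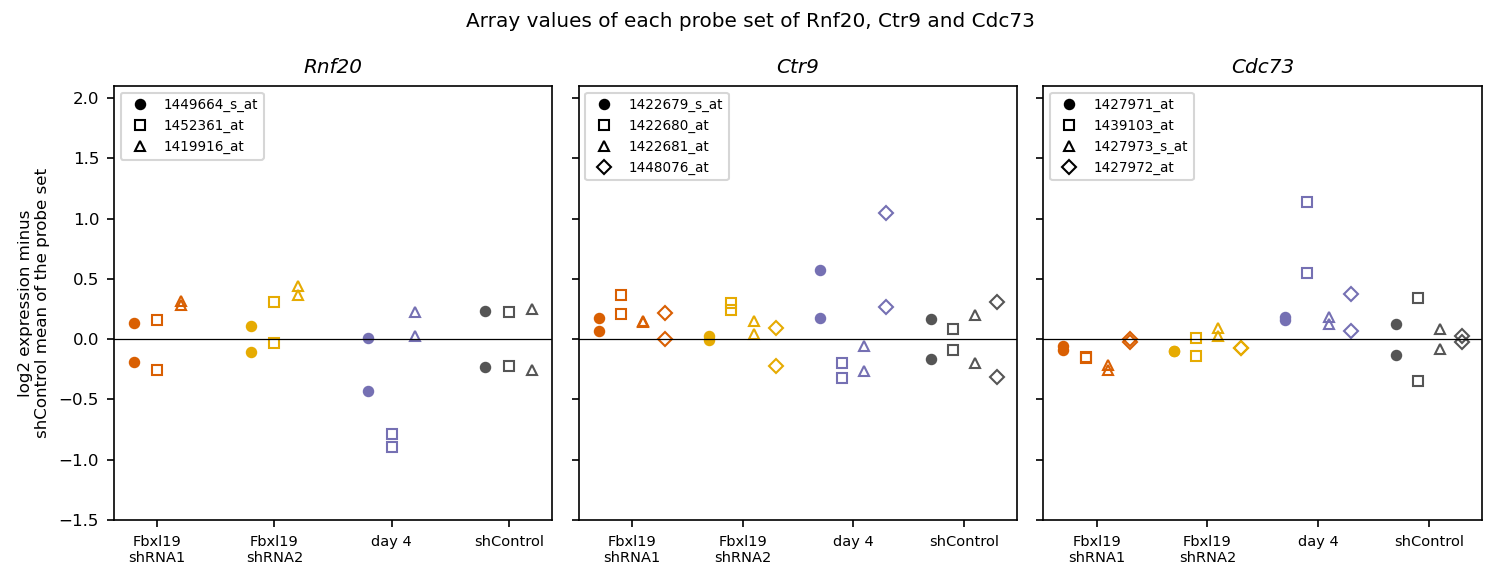
Log2 expression minus the shControl mean of the same probe set (vertical axis) on each array, for every probe set of Rnf20, Ctr9 and Cdc73, with a symbol per probe set and a colour per group. On day 4 the 4 Cdc73 sets lie above 0 on both arrays, the Rnf20 set 1452361_at lies well below 0, and the Ctr9 sets lie on both sides of it.

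Ordered by group mean, the measured genes followed different sequences. Ube2b (1423107_at) was highest on day 4, then shRNA1 and shRNA2, which overlapped, then shControl. Usp7 (1419920_s_at) ran from shControl through shRNA1 and day 4 to shRNA2, with no overlap between neighbours. Its first gaps were narrow, with the nearest arrays at 11.18 (shControl) and 11.17 (shRNA1), and at 11.16 (shRNA1) and 11.14 (day 4). On 1419921_s_at shRNA1 and shControl overlapped, with day 4 and then shRNA2 below. For Usp22, shControl, day 4 and shRNA2 overlapped as neighbours in that order, with shRNA1 apart below them. Paf1 was highest in shControl and shRNA2, which overlapped, with shRNA1 and day 4 below. All 4 groups overlapped as neighbours for the brightest set of Rnf20.

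The genes that work beside these were read from lists in the same limma fit. Of the other PAF1 complex and H2B ubiquitination cofactor genes, 9 were measured. None was called with the hairpins averaged (median change -0.17), and the smallest p was that of Rad18, which encodes a ligase partner of UBE2A and UBE2B in DNA damage tolerance: 5.89 and 5.84 with shRNA1 and 5.92 and 5.91 with shRNA2, against 6.14 and 6.40 in shControl (-0.38 ± 0.12, adjusted p = 0.453). On day 4, 1 of 9 rose and 1 fell (median -0.12), where 16.4% of all genes were called in either direction. Whether this list differs from other genes was not tested. Ube2e1, an E2 gene whose product has been reported to act on H2B, had 10.53 and 10.93 on day 4, against 10.09 and 9.57 in shControl, and rose by 0.90 ± 0.21 (adjusted p = 0.0192), a call that ended without shControl replicate 2 (0.64, adjusted p = 0.132) and without day 4 replicate 2 (0.70, adjusted p = 0.0587). Cdk12, a kinase gene for the polymerase tail, had 6.54 and 6.22, against 7.17 and 7.27, and fell by 0.84 on the log2 scale (log2 change -0.84 ± 0.15, adjusted p = 0.00468), or by 0.52 with its probe sets averaged (adjusted p = 0.0425).

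In the H3K4 and H3K79 methyltransferase list, whose complexes act downstream of the mark, 12 genes were measured. With the hairpins averaged 0 of 12 were called (median -0.06). On day 4, 0 rose and 3 of 12 fell (25%), where 16.4% of all genes were called in either direction, 1082 of the 12393 lower (median of the list -0.14). The 3 encode core subunits shared by the H3K4 complexes, and whether the list differs from other genes was not tested. Wdr5 had 9.65 and 9.64 on day 4, against 10.36 and 10.65 in shControl (-0.86 ± 0.14, limma adjusted p = 0.00331). Ash2l had 10.13 and about 10, against 10.81 and 11.02 (-0.85 ± 0.14, adjusted p = 0.00316). Dpy30 had 11.60 and 11.97, against 12.40 and 12.47 (-0.64 ± 0.16, adjusted p = 0.0241), and its call ended without day 4 replicate 1 (-0.46, adjusted p = 0.0886) and without shControl replicate 1 or 2 (adjusted p = 0.0640 and 0.118).

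No gene was called, in the hairpins or on day 4, among 12 other deubiquitinase and SAGA module genes (medians -0.02 and -0.11) or 9 FACT and elongation genes (medians -0.05 and -0.16). Of all genes, 0.0726% were called in the averaged hairpins and 16.4% on day 4. In the hairpins the smallest p of these lists belonged to Usp16, a histone deubiquitinase gene (-0.26 ± 0.12, limma adjusted p = 0.611), and to Chd1, a chromatin remodeller gene (-0.52 ± 0.16, adjusted p = 0.446, or -0.29 with its probe sets averaged). On day 4 they belonged to Usp36 (-0.46 ± 0.16, adjusted p = 0.0863) and Nelfcd (-0.49 ± 0.16, adjusted p = 0.0686), and both depended on single arrays. Usp36 was called without shControl replicate 1 (-0.65, adjusted p = 0.0317), and was -0.27 without shControl replicate 2 (adjusted p = 0.323) and -0.24 with its probe sets averaged. Nelfcd was called without day 4 replicate 2 (-0.67, adjusted p = 0.0184) and was -0.31 without day 4 replicate 1 (adjusted p = 0.260). The ubiquitin and E1 genes listed are not analysed here.

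**Figure D4:**
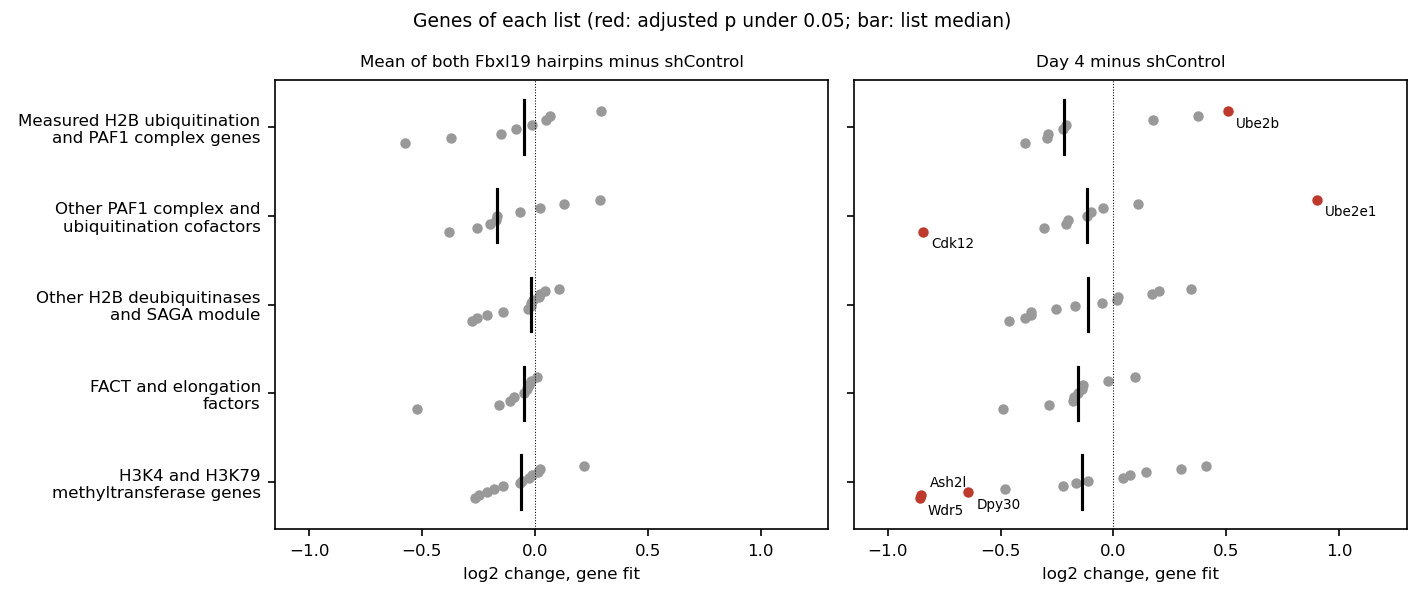
Log2 change of each measured gene (horizontal axis, a point per gene; bars mark the list median) for the members and 4 lists of neighbouring genes, in the averaged hairpins minus shControl (left) and day 4 minus shControl (right). Red points passed the test: none in the hairpins, and Ube2b, Ube2e1, Cdk12, Ash2l, Wdr5 and Dpy30 on day 4.

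The genes whose pattern over the 8 arrays was most like that of Ube2b, the member with the called change, were Susd4 (Pearson's r = 0.971), Notch3 (0.969), Sv2a (0.969), C2cd2 (0.969) and Etl4 (0.950). Notch3, a Notch receptor gene, had 7.56 and 7.50 on day 4 and 7.02 to 7.25 on the knockdown arrays, against 6.58 and 6.72 in shControl. For Usp22, the member with the smallest p in the averaged hairpins, they were Smg8 (0.981), Ube2z (0.963), Nkx2-4 (0.961), Bex3 (0.959) and Hgsnat (0.950). Ube2z, an E2 gene, had 8.76 and 8.81 with shRNA1 and 9.08 and 8.99 with shRNA2, against 9.07 and 9.21 in shControl. These values describe 8 arrays that fall into 4 groups, and no test was made.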

How the data were processed

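Expression in mouse J1 ES cells was analysed from the log2 values the authors deposited, 1 per probe set, for which the submitters' processing notes name RMA. RMA is a method of background correction, quantile normalization and probe summary. The RMA version is not given in the sources used here, nor is joint or separate normalization of the 8 arrays. Labelling with Cy3 is recorded for a platform that the design text calls Affymetrix.

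Groups and replicate numbers came from the sample titles. Array controls (64 probe sets) were left out. Of the other probe sets, 20380 carried 1 gene symbol in the platform annotation, with symbols updated through a RefSeq table of assembly GRCm38.p6. Group means (4) were fitted with limma 3.58.1 in R 4.3.3 (lmFit, eBayes; 4 residual degrees of freedom), to 12393 genes by their brightest probe set and to all single-symbol probe sets, with Benjamini-Hochberg adjustment over each whole table. The code was tested on simulated data.

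The members and lists were chosen with earlier results of these data known. All members were named with every probe set, the 3 genes with the smallest p could be named from each other list, and the 5 genes with the highest r for 2 members. Alternatives were each gene's probe sets averaged, dim features left out (lowest 30%), trend and robust eBayes, centring, repeated quantile normalization, array weights, a fit of the compared groups only, the replicate number as a block, day 4 against the mean of the undifferentiated groups, and each array left out. Precision is limited by the number of arrays; there is no read depth.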

Additional observations from a re-analysis of the deposited data

How the results depend on the processing

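Across all alternatives, 3154 values of single genes and probe sets were recomputed. Of these, 2997 kept their direction and their side of the threshold, 34 called values lost their call, 20 gained one, none was called with the opposite sign, and 103 changed sign with no call on either side. The cause of these changes was not tested.

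The count of members called stayed at 0 for the averaged hairpins and for shRNA2 under every alternative run. For shRNA1 it was 1 with the compared groups only (Usp22), and 0 to 1 when arrays were left out in turn. For shRNA2 against shRNA1 it was 1 with array weights (Usp7), and 1 for probe sets too. On day 4, the 1 member called fell to 0 with each gene's probe sets averaged (Ube2b 0.41, adjusted p = 0.134), the compared groups only (adjusted p = 0.142), array weights (adjusted p = 0.110) and the mean of the undifferentiated groups, and ranged from 0 to 2 when arrays were left out in turn. The 2 probe sets called on day 4 fell to 0 with the compared groups only (Rnf20 1452361_at, adjusted p = 0.0546) and with array weights (adjusted p = 0.131), and ranged from 0 to 5 when arrays were left out in turn. Of the other named genes, Cdk12, Wdr5 and Ash2l were called on day 4 under all 18 alternatives, Ube2e1 under 14 and Dpy30 under 13.

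The difference between replicate 2 and replicate 1 correlated across genes at 0.504 between the 2 hairpins and at 0.261 and 0.226 between a hairpin and shControl. Replicate 2 also had the higher array median in these groups (5.76 against 5.72 for shRNA1, 5.75 against 5.71 for shRNA2, 5.81 against 5.71 for shControl). The part of that shift was not tested, nor was paired handling. With day 4 the replicate difference correlated at -0.078 to 0.070, so pairing was not shown for that group. With the replicate number as a block, 0 members and 0 of their probe sets were called in the hairpin comparisons, as without it (Usp22 with shRNA1, adjusted p = 0.122). On day 4, 4 member probe sets were called with the block (adding Cdc73 1439103_at, adjusted p = 0.0339, and Ctr9 1448076_at, adjusted p = 0.0320), and Ube2b stayed called (adjusted p = 0.0284).

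With 2 arrays a group, differences inside the 95% intervals above, such as 0.4 for Rnf20 under the hairpins, could not be told from 0. The sign of Rnf20 in the averaged hairpins turned in 6 of 17 alternatives.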
